A study of Mus musculus with 15 samples.

Results

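Messenger RNA of the chemokines and chemokine receptors was measured in 12 mouse liver tumours and 3 normal livers. Members were all gene symbols in the count table that begin with Ccl, Cxcl, Cx3cl or Xcl followed by a digit, and those made of Ccr, Cxcr, Cx3cr or Xcr and digits alone. The choice used names and no measured value, and it gave 58 of 23284 symbols, 39 of them ligands and 19 receptors. The study asked what the loss of Hmgb1, a chromatin protein that dying cells also release as an alarm signal, does in liver cancer. The 6 floxed tumours came from mice with an intact floxed gene (written Hgmb1fl/fl in the labels). The 6 Hmgb1-deleted tumours (Hgmb1Dhep) came from floxed mice that also carry Albumin-Cre, a recombinase driven in hepatocytes and bile duct epithelium, so other liver cells keep the gene. All tumour-bearing mice received diethylnitrosamine, a liver mutagen (25 mg/kg, injected on day 15 after birth), and carbon tetrachloride, a liver toxin (0.5 ul/g weekly from week 8 for 15 weeks). The 3 normal livers came from control C57Bl/6 mice with no treatment named. Treated liver without tumour was not among the samples, and the labels give no strain for the floxed mice, so tumour, treatment and strain cannot be told apart against normal liver. Neither litters nor batches are labelled, nor whether tumours shared a mouse, and each p-value is therefore set against sample-to-sample spread that may be technical.

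Chemokines are small secreted proteins that bind receptors with membrane-spanning helices on white blood cells and draw those cells along a gradient. They are sorted by the spacing of their first cysteines into CXC, CC, CX3C and XC families, and receptors are named after the family they bind. Liver epithelium, resident macrophages (Kupffer cells), stellate cells and sinusoidal endothelium make many of them during injury, and which cells enter an injured liver depends on which ligands and receptors are present. In bulk RNA, fewer cells of a type and less RNA per cell cannot be told apart, and this holds for each result below.

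Upstream sequence is printed for 5 ligands on which the comparisons turn. Cxcl1 and Cxcl12 differed between the tumour groups, Cxcl2 is a close neighbour and relative of Cxcl1, and Cxcl9 and Cxcl10 are interferon-induced neighbours. Each run gives the 250 bases before the transcription start on the gene's own strand, 5′ to 3′, from RefSeq on GRCm38.p6, which is not the build of the counts (mm9). Capitals mark matches on either strand to 3 motifs: the NF-kappaB type (GGG, any 3 bases, TTCC), the interferon response type (GAAA, any 2 bases, GAAA) and the STAT type (TTC, any 3 bases, GAA). The regions are chr5:90890995-90891244 (plus strand), chr5:90903649-90903898 (plus), chr5:92328080-92328329 (minus), chr5:92348890-92349139 (minus) and chr6:117168285-117168534 (plus).
Cxcl1: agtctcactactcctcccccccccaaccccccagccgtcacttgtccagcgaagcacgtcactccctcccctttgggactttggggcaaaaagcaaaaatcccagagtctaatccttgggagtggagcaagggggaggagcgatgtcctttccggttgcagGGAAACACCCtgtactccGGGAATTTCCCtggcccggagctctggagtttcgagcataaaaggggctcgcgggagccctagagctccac
Cxcl2: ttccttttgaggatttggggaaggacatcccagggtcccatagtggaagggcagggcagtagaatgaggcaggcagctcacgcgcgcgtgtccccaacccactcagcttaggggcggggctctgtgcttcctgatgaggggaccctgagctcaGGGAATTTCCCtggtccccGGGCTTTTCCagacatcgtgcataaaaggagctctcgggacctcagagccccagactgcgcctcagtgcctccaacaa
Cxcl9: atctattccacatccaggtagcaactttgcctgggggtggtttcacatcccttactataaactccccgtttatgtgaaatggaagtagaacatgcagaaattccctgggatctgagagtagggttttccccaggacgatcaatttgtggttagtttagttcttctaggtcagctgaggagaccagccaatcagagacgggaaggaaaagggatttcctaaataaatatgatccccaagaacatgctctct
Cxcl10: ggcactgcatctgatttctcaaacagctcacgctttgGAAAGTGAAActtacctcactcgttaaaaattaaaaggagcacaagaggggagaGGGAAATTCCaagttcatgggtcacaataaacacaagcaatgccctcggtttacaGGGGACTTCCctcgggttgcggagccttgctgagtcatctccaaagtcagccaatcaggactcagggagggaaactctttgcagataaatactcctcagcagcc
Cxcl12: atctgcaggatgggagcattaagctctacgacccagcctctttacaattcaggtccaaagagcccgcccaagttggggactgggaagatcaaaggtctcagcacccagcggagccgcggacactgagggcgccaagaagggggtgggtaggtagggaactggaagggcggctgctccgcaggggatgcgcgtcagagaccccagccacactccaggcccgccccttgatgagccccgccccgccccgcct
Cxcl1 and Cxcl2 share the run GGGAATTTCCC, which matches the NF-kappaB type on both strands in overlap. It begins 71 bases before the start of Cxcl1 and 97 bases before that of Cxcl2, and each window holds a further match, 89 and 78 bases before the start. In Cxcl10 the interferon type matches 213 bases before the start and the NF-kappaB type 159 and 104 bases before it. No such letters are in the windows of Cxcl9 and Cxcl12. RefSeq windows of 300 bases, with 50 after the start, were at hand for 42 of the 58 members. The NF-kappaB type was found in 9 of these 42 and in 5.56% of all 32851 promoters, the interferon type in 3 and 3.44%, and the STAT type in 3 and 8.30%. A member counts if any of its windows matches, while the percentages are per window, so the shares are not like for like. A match describes the letters only.

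Hmgb1 itself was at 27.9 ± 3.36 CPM (counts per scaled library total; SD, n = 6) in floxed tumours, 14.8 ± 2.76 CPM (n = 6) in Hmgb1-deleted tumours and 23.9 ± 6.07 CPM (n = 3) in normal livers. The deleted tumours lay below the floxed ones without overlap (log2 difference -0.89, two-sided exact permutation test, p = 0.00216, the lowest that 6 against 6 allow). Libraries held 18973246 to 30929442 counts, and a gene with 0 counts in a library could have up to 0.110 to 0.169 CPM by counting error alone (3 counts). Hepatocyte markers (Alb, Apoa1, Apob, Ttr, Serpina1c, Tat and Hnf4a) summed to 72053 to 284012 CPM and were present in every library. Hmgb1-deleted tumours 2 and 5 and tumours 3, 4 and 6 were known from earlier results to lie apart from one another over all genes, so the fits were repeated without tumours 2 and 5 and without tumours 3, 4 and 6. Both sets were chosen from these same data, so an adjusted p from such a fit is not a separate test.

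Chemokine genes were mostly higher in tumours than in normal liver, whichever the genotype. The share called between genotypes was near that of all genes. Against normal liver, 28 of 40 tested members were higher in floxed tumours and 1, Cxcl12, was lower, where 24.9% of all 13784 tested genes were higher and 23.8% lower and 48.7% passed in either direction (edgeR, quasi-likelihood F test; p adjusted by Benjamini and Hochberg, called under 0.05). The members' median log2 fold change was 2.11, beside 0.06 over all genes. In Hmgb1-deleted tumours 24 of 39 were higher and Cxcl12 was again lower, where 34.7% of all genes passed (18.1% higher, 16.6% lower), with medians of 1.90 and 0.05. Both comparisons use the same 3 normal livers. Between Hmgb1-deleted and floxed tumours, Cxcl1 was lower and Cxcl12 higher of 38 tested members, 5.26% of them, where 7.78% of all 13433 genes were called (4.45% higher, 3.33% lower). The medians were 0.00 and 0.02.

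These counts depend on which members could be tested. In the comparison of floxed tumours with normal liver, 12 of the 40 tested members had under 10 counts in each normal liver, so they entered the test only through the tumours, and a higher level there was a condition of entry. These 12 were Ccl3, Ccl4, Ccl7, Ccl8, Ccl20, Ccl22, Ccr3, Cxcl2, Cxcl3, Cxcl5, Cxcl17 and Cxcr2. The rises and adjusted p given for them below carry this condition. All 12 were called, and of the other 28 members 16 were higher and 1 lower, with a median of 1.76. Over all genes with at least 10 counts in a normal liver, 22.0% were higher and the median was 0.01. With Hmgb1-deleted tumours 12 of 39 were of this kind, with Ccl12 and Xcl1 in place of Ccr3 and Cxcl3. Of these 12, 10 were called, all but Cxcr2 and Xcl1. Of the other 27 members 14 were higher and 1 lower, with a median of 1.53 (16.0% higher and a median of 0.01 over all genes with such counts). Ccr1 and Cxcr4, higher in both tumour groups, are among these other members. They had 3 to 11 and 4 to 15 counts in normal livers, under 10 in at least 1 of them. The figures for the other members are therefore not free of the condition of entry. The Hmgb1-deleted comparison rested on all 3 normal livers, since 8, 8 and 7 members were called without normal liver 1, 2 and 3. Ccl5, Ccl9, Ccr7, Cxcl9, Cxcl10 and Cxcr4 kept their calls whichever library was left out. In floxed tumours 18 of the 29 calls were kept in each of 9 such fits, and 20 to 29 members were called.

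The sizes in Hmgb1-deleted tumours against normal liver also depended on which of these tumours were fitted. Without deleted tumours 2 and 5, 18 of the 25 called members still entered the fit, the calls of Ccl3 and Cxcl14 ended, and 9 fold changes moved by over 1.5 times, each of them downward. Those were the values of Ccl2, Ccl3, Ccl22, Ccr1, Ccr2, Cx3cl1, Cx3cr1, Cxcl14 and Cxcr4. Without deleted tumours 3, 4 and 6, 24 of the 25 entered, the call of Cxcl1 ended, and 13 moved by over 1.5 times, each of them upward. Those were Ccl2, Ccl3, Ccl4, Ccl7, Ccl12, Ccl20, Ccr1, Ccr2, Cx3cl1, Cx3cr1, Cxcl5, Cxcl14 and Cxcr4. The values stand beside each gene.

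**Figure D1:**
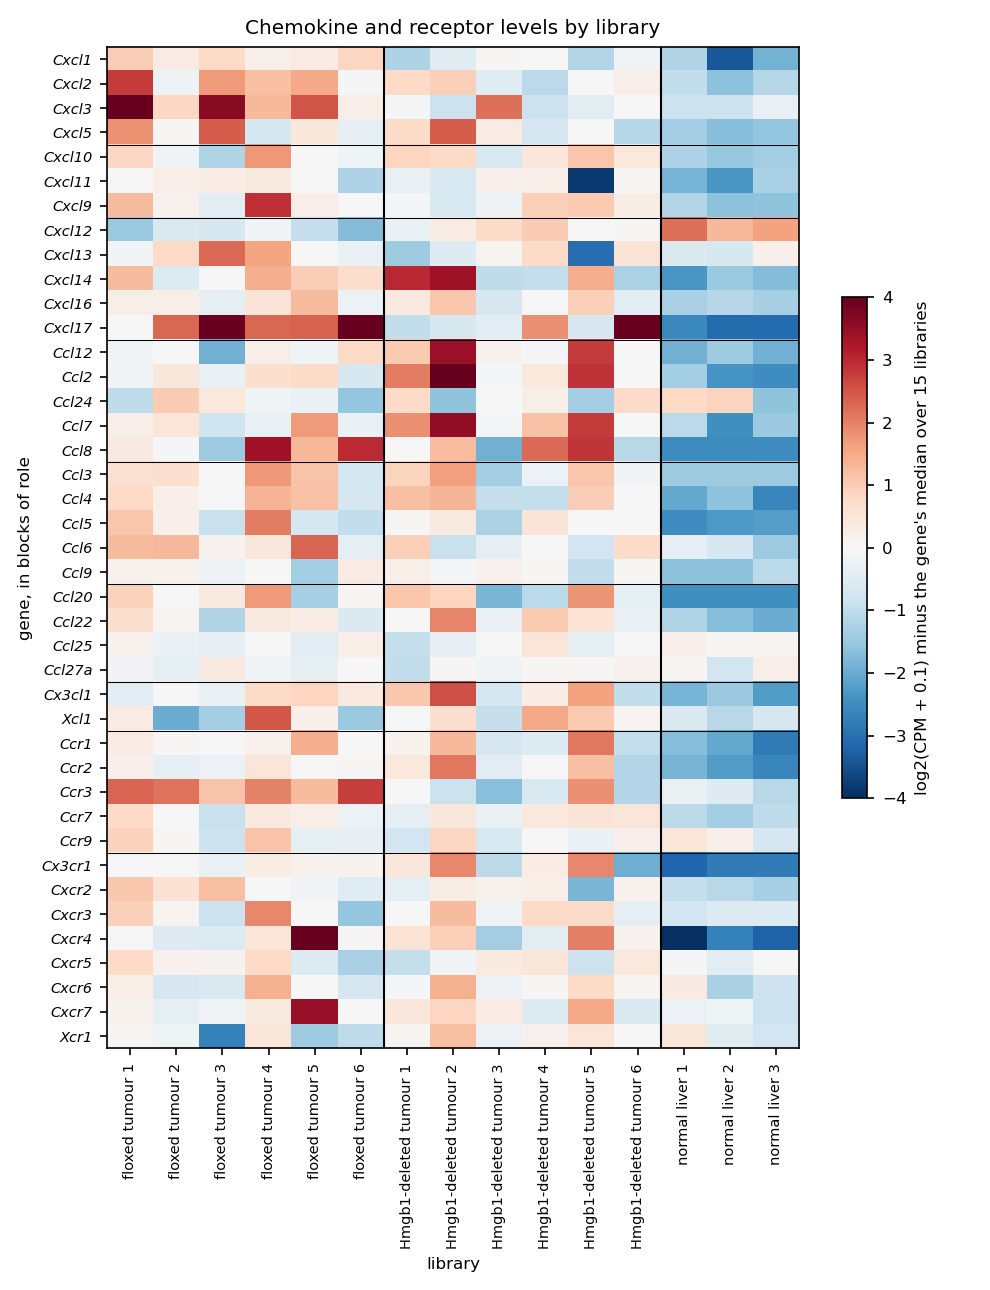
Each row is 1 of 41 members tested in at least 1 comparison, in blocks of role, and each column is 1 library; colour gives log2(CPM + 0.1) minus the gene's median over the 15 libraries and saturates at -4 and 4. Normal livers are below the median for most ligands and above it for Cxcl12, and Hmgb1-deleted tumours 2 and 5 share a block of high Ccl2, Ccl7, Ccl12, Ccr1, Ccr2 and Cx3cr1.

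The neutrophil-attracting CXC ligands act through Cxcr2, and in mice Cxcl1 is the main one. Cxcl1 was at 69.5 to 117 CPM in floxed tumours (median 88.0), 25.0 to 60.9 CPM in Hmgb1-deleted tumours (median 47.8) and 25.1, 5.54 and 15.7 CPM in normal livers. Every deleted tumour was below every floxed tumour, and 5 of 6 deleted tumours were above every normal liver, with tumour 1 level with normal liver 1. Between the tumour groups its level was 2.01-fold lower in deleted tumours (log2 fold change -1.01 ± 0.24, SE; adjusted p = 0.0251). Leaving out floxed tumour 1 or 3 took the adjusted p to 0.0536 or 0.0540, and leaving out deleted tumours 2 and 5 took it to 0.0528 at -0.88. Against normal liver Cxcl1 rose by 2.55 ± 0.41 in floxed tumours (adjusted p = 0.000690) and by 1.54 ± 0.47 in Hmgb1-deleted tumours (adjusted p = 0.0318). The latter call ended without normal liver 2 or 3 (highest adjusted p = 0.0917), and without deleted tumours 3, 4 and 6 the value was 1.05 (adjusted p = 0.127).

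Other members of this branch were scarcer. Cxcl2, a close relative of Cxcl1, was at 0.281 to 2.93 CPM in floxed tumours (median 1.02), 0.108 to 0.743 CPM in Hmgb1-deleted tumours (median 0.373) and 0.122, 0.0407 and 0.0985 CPM in normal livers. It rose against normal liver by 3.63 ± 0.89 and 2.24 ± 0.71 (adjusted p = 0.00719 and 0.0352), and the difference between tumour groups was -1.40 ± 0.58 (adjusted p = 0.159). Cxcl5, made mostly by epithelium, rose by 3.40 ± 0.96 and 3.16 ± 1.05 (adjusted p = 0.0143 and 0.0418), from 0.0815 to 0.122 CPM in normal livers. Floxed tumours had 0.260 to 3.05 CPM of it and deleted tumours 0.164 to 3.01 CPM, with tumour 2 the highest. Without that tumour the log2 fold change was 2.25 (adjusted p = 0.0315), and without tumours 3, 4 and 6 it was 3.84 (0.00907). Cxcl3 had 1 count over the normal livers and 173 over the floxed tumours, a ratio of 92.4 (95% counting interval 16.4 to 3670; edgeR adjusted p = 0.0132). Its fitted log2 value of 6.11 was 7.97 without normal liver 3. Floxed tumours 1 and 3 held most of these counts, at 4.72 and 2.12 CPM, and deleted tumours were at 0 to 0.0820 CPM except tumour 3 at 0.744 CPM. Cxcr2, the neutrophil receptor for these ligands, was at 0.437 to 1.63 CPM in floxed tumours, 0.112 to 0.817 CPM in deleted tumours and 0.197 to 0.284 CPM in normal livers. It rose in floxed tumours (1.95 ± 0.53, adjusted p = 0.0117) and stood at 1.33 ± 0.57 in deleted tumours (adjusted p = 0.0924).

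Single libraries bear on these calls. The floxed call of Cxcl3 ended without normal liver 1 or 2, that of Cxcl5 without 2 or 3, and that of Cxcr2 without 3 (highest adjusted p = 0.0544, 0.0581 and 0.0532). In deleted tumours the calls of Cxcl2 and Cxcl5 ended without any 1 normal liver (highest adjusted p = 0.132 and 0.129), and that of Cxcl5 also without deleted tumour 1. Neutrophil markers (S100a8, S100a9, Mpo, Elane, Csf3r, Retnlg, Mmp8, Ngp and Camp) summed to 5.33 to 39.6 CPM in floxed tumours, 10.6 to 18.7 CPM in deleted tumours and 3.83 to 5.32 CPM in normal livers, where Mpo and Ngp were at 0. Only 4 of these 9 were tested in floxed tumours and 3 in deleted tumours. S100a8, S100a9, Csf3r and Retnlg were higher in floxed tumours than in normal liver, where 24.9% of all genes were, and Retnlg had under 10 counts in each normal liver. S100a8 and Csf3r were higher in deleted tumours, where 18.1% of all genes were. Their part in the values of Cxcr2 and its ligands was not tested.

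**Figure D2:**
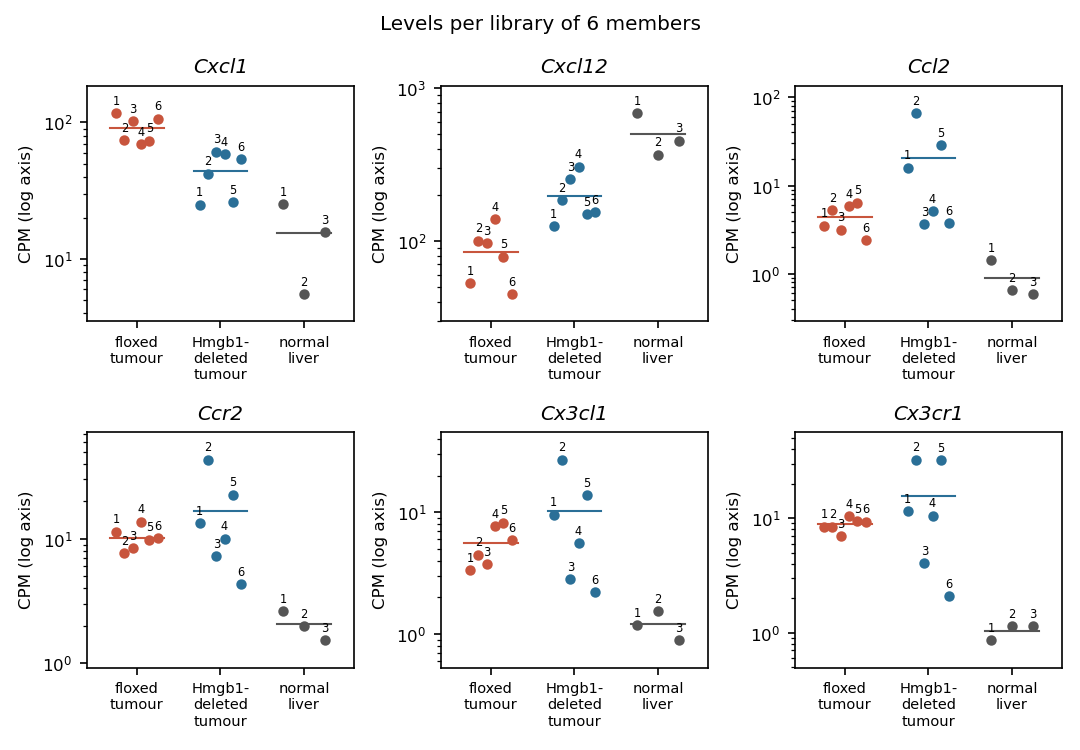
Points are libraries, numbered by replicate, lines are group means, and the vertical axes give CPM on a log scale for Cxcl1, Cxcl12, Ccl2, Ccr2, Cx3cl1 and Cx3cr1 in 6 floxed tumours, 6 Hmgb1-deleted tumours and 3 normal livers. Cxcl1 separates the tumour groups, Cxcl12 is highest in normal liver, and in the other 4 panels Hmgb1-deleted tumours 2 and 5 lie above every floxed tumour.

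Cxcl12 ran the other way. It is a stromal chemokine that holds blood progenitors and lymphocytes in place through Cxcr4, while Cxcr7 binds it without usual G-protein signalling. Cxcl12 was at 44.9 to 138 CPM in floxed tumours (median 87.2), 125 to 305 CPM in Hmgb1-deleted tumours (median 169) and 684, 365 and 451 CPM in normal livers. Each of the 12 tumours was below each normal liver, and 5 of 6 deleted tumours were above every floxed tumour. Against normal liver it fell by 2.55 ± 0.34 on the log2 scale in floxed tumours (adjusted p = 0.000192) and by 1.35 ± 0.30 in Hmgb1-deleted tumours (adjusted p = 0.00928). The second call ended without normal liver 1 (adjusted p = 0.0601). Deleted tumours had 2.32-fold more than floxed tumours (1.22 ± 0.29, adjusted p = 0.0251). That call ended without floxed tumour 1 (adjusted p = 0.0513) or deleted tumour 3 (0.0530) or 4 (0.0662), and without deleted tumours 3, 4 and 6 together the value was 0.84 (adjusted p = 0.148).

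Dpp4, a surface protease that trims and inactivates Cxcl12, showed the same order of levels, with means of 180 CPM in normal livers, 105 CPM in Hmgb1-deleted tumours and 35.0 CPM in floxed tumours. It differed by 1.61 ± 0.18 between tumour groups (adjusted p = 0.000878). The receptors of Cxcl12 had another pattern. Cxcr4 was at 3.10 to 75.5 CPM in floxed tumours (median 4.65), 1.70 to 18.9 CPM in Hmgb1-deleted tumours (median 5.89) and 0.162, 0.611 and 0.394 CPM in normal livers. Both tumour groups lay above the normal livers without overlap. It rose by 5.39 ± 1.51 (adjusted p = 0.0139) and 4.27 ± 0.88 (adjusted p = 0.00711), and the floxed value was 3.49 without floxed tumour 5 (adjusted p = 0.000207). The deleted value was 3.42 without deleted tumours 2 and 5 (adjusted p = 0.00643) and 4.92 without tumours 3, 4 and 6 (0.000839). The floxed call ended without normal liver 1 or 3 (highest adjusted p = 0.0600). Cxcr7 was at 1.12 to 1.95 CPM in 5 floxed tumours, 18.0 CPM in floxed tumour 5, 0.984 to 4.51 CPM in deleted tumours and 0.788 to 1.34 CPM in normal livers, and it passed in no comparison (adjusted p = 0.135 to 0.481). Floxed tumour 5 also had the highest sum of stellate cell and fibroblast markers (Des, Lrat, Reln, Pdgfrb, Pdgfra, Col1a1, Col3a1, Acta2 and Dcn), 1423 CPM against 253 to 376 CPM in the other floxed tumours and 255.5 to 503 CPM in deleted tumours. Normal livers had 266 to 366 CPM, no marker was at 0, and the part of these cells was not tested.

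The monocyte-attracting CC ligands and their receptor Ccr2 were high in tumours, and Ccl2, Ccl7, Ccl12 and Ccr2 had their highest levels in Hmgb1-deleted tumour 2. Ccl2, the main monocyte chemoattractant, was at 2.39 to 6.43 CPM in floxed tumours (median 4.38), 3.66 to 66.2 CPM in deleted tumours (median 10.5) and 1.42, 0.652 and 0.591 CPM in normal livers. Deleted tumours 1, 2 and 5 (15.9, 66.2 and 28.5 CPM) were above every floxed tumour, and tumours 3, 4 and 6 (3.66, 5.11 and 3.77 CPM) lay among them. Levels thus spanned 18.1-fold over deleted tumours and 2.69-fold over floxed tumours. Ccl2 rose against normal liver by 2.32 ± 0.45 in floxed tumours (adjusted p = 0.00196) and by 4.56 ± 1.21 in deleted tumours (adjusted p = 0.0185). The deleted value was 3.70 without deleted tumour 2, 3.00 without tumours 2 and 5 (adjusted p = 0.0134) and 5.40 without tumours 3, 4 and 6 (adjusted p = 0.00111). Between tumour groups the value was 2.25 ± 0.69 and missed the threshold (adjusted p = 0.0644). It was 3.05 (adjusted p = 0.00599) without deleted tumours 3, 4 and 6 and 0.68 (adjusted p = 0.393) without tumours 2 and 5. The first of these fits keeps deleted tumours 1, 2 and 5, those with the highest Ccl2, so its adjusted p is not a separate test. The difference in Ccl2 between tumour groups also passed with DESeq2 (2.22, adjusted p = 0.00612), with all 15 samples in 1 fit (2.24, 0.0390) and without deleted tumour 3 or 6 (0.0455 and 0.0417).

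Ccl7 and Ccl12, monocyte attractants that share Ccr2, followed the same tumours. Ccl7 was at 0.218 to 1.69 CPM in floxed tumours (median 0.452), 0.425 to 6.35 CPM in deleted tumours (median 1.5) and 0.162, 0 and 0.0985 CPM in normal livers. It rose by 2.83 ± 0.91 (adjusted p = 0.0254) and 4.71 ± 1.25 (adjusted p = 0.0184). Without normal liver 1 the floxed value was 3.65, and without normal liver 2 it was 2.24 and missed the threshold (0.0872), as it did at 2.88 without normal liver 3 (0.0726). The deleted value was 4.10 without deleted tumour 2 (0.0228), 5.49 without tumours 3, 4 and 6 (0.00172), and 5.55 and 4.12 without normal liver 1 and 2. Deleted tumours 1, 2 and 5 again held the highest levels, at 1.87, 6.35 and 3.73 CPM. Ccl12 had 1 count over the normal livers and 214 over deleted tumours, a ratio of 104 (95% counting interval 18.5 to 4130; adjusted p = 0.0177), with 4.05 and 2.54 CPM in tumours 2 and 5 and 0.269 to 0.695 CPM in the other 4. Its fitted log2 value of 6.17 was 8.03 without normal liver 2 and 7.02 without deleted tumours 3, 4 and 6. Against floxed tumours Ccl12 was not tested. Ccl8, which also attracts other white blood cells, had 0 counts in normal livers, and its pooled level was at least 54.3-fold higher in floxed tumours and at least 34.4-fold higher in deleted tumours (against 3 counts over the normal livers; adjusted p = 0.0130 and 0.0325). Floxed tumours 4 and 6 (5.84 and 4.49 CPM) and deleted tumours 4 and 5 (2.69 and 4.10 CPM) had most of it. The fitted floxed log2 value of 8.6 was 7.99 without floxed tumour 4, and the deleted one of 8.12 was 7.42 without deleted tumour 5. Ccl24, an eosinophil attractant, did not pass in any comparison and was at 0.295 to 2.36 CPM over all libraries.

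Ccr2, the receptor that brings monocytes out of bone marrow, was at 7.70 to 13.8 CPM in floxed tumours (median 9.95), 4.31 to 43.2 CPM in Hmgb1-deleted tumours (median 11.7) and 2.64, 2 and 1.53 CPM in normal livers. All 12 tumours were above the normal livers, and deleted tumours 2 and 5 stood at 43.2 and 22.6 CPM. It rose by 2.31 ± 0.27 (adjusted p = 8.4e-05) and 3.06 ± 0.76 (adjusted p = 0.0143). The deleted value was 2.08 without deleted tumours 2 and 5 (adjusted p = 0.00847) and 3.72 without tumours 3, 4 and 6 (0.00126). Between tumour groups it was at 0.76 ± 0.45 (adjusted p = 0.331), with 2 deleted tumours above and 2 below all floxed ones. In deleted tumours the calls of Ccl2, Ccl7, Ccl12, Ccl8 and Ccr2 ended without any 1 normal liver (highest adjusted p = 0.0778, 0.0709, 0.0741, 0.0864 and 0.0613), and that of Ccl8 also without deleted tumour 2. Monocyte markers (Ly6c2, Fcgr1, Itgam, Cd14, Chil3 and F13a1) summed to 54.8 to 184 CPM in floxed tumours, 24.2 to 70.8 CPM in deleted tumours and 6.27 to 7.76 CPM in normal livers. Against normal liver 5 of 6 were higher in each tumour group, where 24.9% and 18.1% of all genes were higher. Between tumour groups 1 of 6 was lower and 0 higher (median log2 fold change -0.26), where 3.33% of all genes were lower. Chil3 and F13a1 had under 10 counts in each normal liver, and Chil3 did not pass in deleted tumours. Deleted tumours 2 and 5 had sums of 70.8 and 31.0 CPM, and the other 4 deleted tumours 24.2 to 67.4 CPM. No monocyte marker was at 0, and their part was not tested.

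Fractalkine and its receptor varied over the same tumours. Cx3cl1 encodes fractalkine, a ligand tethered to epithelium and endothelium, and Cx3cr1 is its receptor on monocytes and tissue macrophages. Cx3cl1 was at 3.33 to 8.23 CPM in floxed tumours (median 5.19), 2.22 to 27.1 CPM in deleted tumours (median 7.59) and 1.18, 1.55 and 0.886 CPM in normal livers. Cx3cr1 was at 6.97 to 10.5 CPM in floxed tumours (median 8.88), 2.09 to 32.5 CPM in deleted tumours (median 11.0) and 0.853, 1.14 and 1.13 CPM in normal livers. Neither gene overlapped between tumours and normal liver. Floxed tumours spanned 1.5-fold in Cx3cr1 and deleted tumours 15.5-fold, with tumours 2 and 5 at 32.5 and 32.2 CPM and tumours 3 and 6 at 4.04 and 2.09 CPM. Against normal liver Cx3cl1 rose by 2.21 ± 0.39 and 3.11 ± 0.86 (adjusted p = 0.00114 and 0.0217), and Cx3cr1 by 3.08 ± 0.23 and 3.92 ± 0.96 (adjusted p = 7.09e-06 and 0.0138). Without deleted tumour 2 the deleted value of Cx3cl1 was 2.52 (adjusted p = 0.0231). Without tumours 2 and 5 the deleted values were 2.07 for Cx3cl1 and 2.75 for Cx3cr1 (adjusted p = 0.0235 and 0.0133), and without tumours 3, 4 and 6 they were 3.84 and 4.65 (0.000839 and 0.000512). Both deleted calls ended without any 1 normal liver (highest adjusted p = 0.0830 and 0.0645). The tumour groups did not differ detectably in either (0.91 and 0.84, adjusted p = 0.323 and 0.363). Without deleted tumours 3, 4 and 6 both passed as higher, in a set chosen from these same data, which is not a separate test. Deleted tumour 2 also had the highest sum of cholangiocyte markers (Krt7, Krt19, Epcam, Sox9, Spp1 and Cftr), 6113 CPM against 205 to 1147 CPM in the other deleted tumours and 60.5 to 1766 CPM in floxed tumours. Normal livers had 67.4 to 79.0 CPM, none of these markers was at 0, and their part was not tested.

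**Figure D3:**
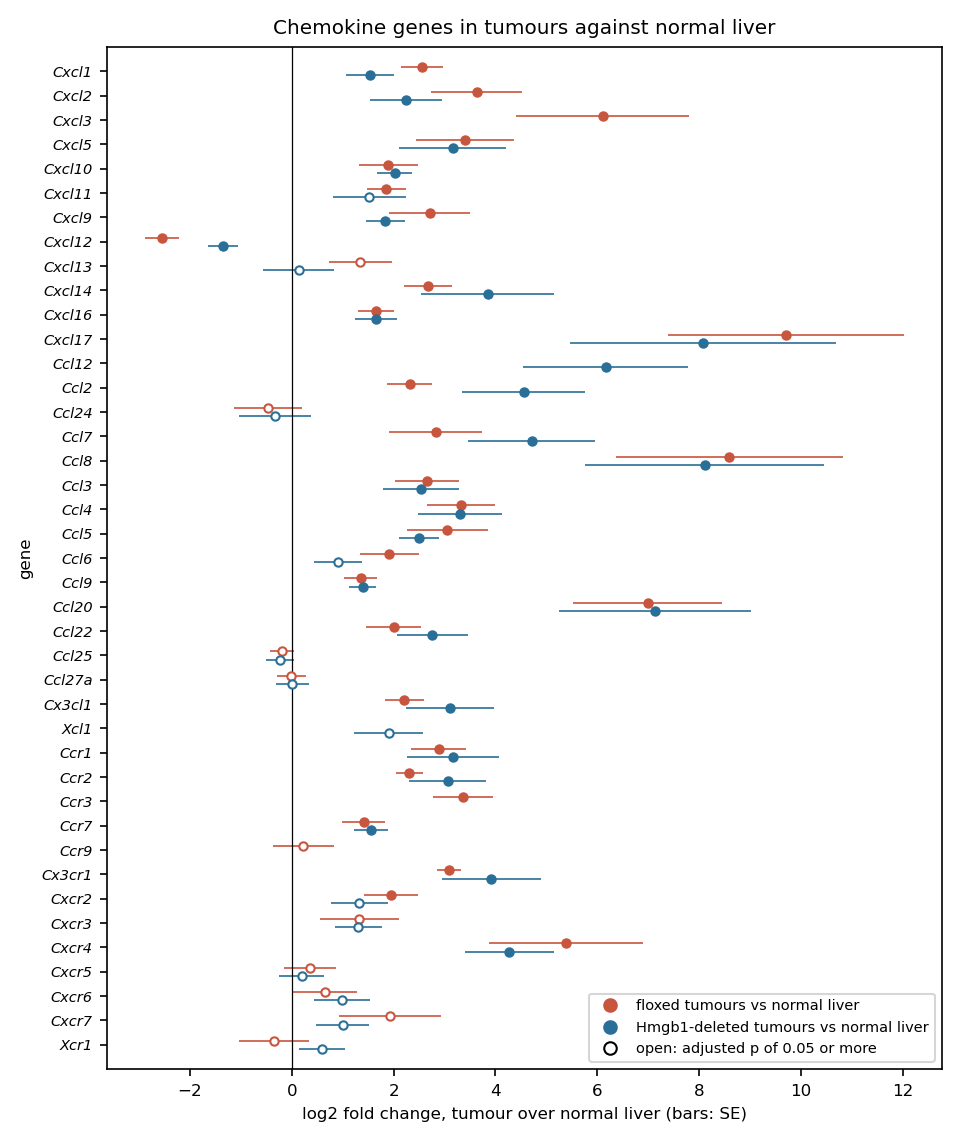
Points give the log2 fold changes of tested members against normal liver, with bars of 1 SE, for floxed (red) and Hmgb1-deleted (blue) tumours; filled points passed an adjusted p of 0.05. Cxcl12 is the filled point below 0 in both groups, and values of Ccl8, Ccl12, Ccl20, Cxcl3 and Cxcl17 rest on 0 or 1 count in normal liver, so their fitted sizes are no bounds.

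The interferon-induced ligands Cxcl9, Cxcl10 and Cxcl11 draw activated T cells and natural killer cells through Cxcr3. Cxcl9 was at 22.0 to 234 CPM in floxed tumours (median 35.4), 20.0 to 63.0 CPM in Hmgb1-deleted tumours (median 33.2) and 13.4, 9.78 and 10.05 CPM in normal livers. Floxed tumour 4 stood alone at 234 CPM, and both tumour groups were above normal liver without overlap. Its log2 fold changes were 2.71 ± 0.80 (adjusted p = 0.0174; 1.83 without floxed tumour 4) and 1.84 ± 0.38 (adjusted p = 0.00742). Cxcl10 was at 4.63 to 36.6 CPM in floxed tumours, 7.06 to 23.4 CPM in deleted tumours and 4.55, 3.71 and 4.09 CPM in normal livers, and it rose by 1.90 ± 0.58 and 2.02 ± 0.35 (adjusted p = 0.0207 and 0.00378). Floxed tumour 4 was again the highest. Cxcl11 rose in floxed tumours by 1.85 ± 0.38 (adjusted p = 0.00285), from 1.55 to 3.30 CPM in normal liver to 3.42 to 10.6 CPM. In deleted tumours it was at 5.39 to 9.74 CPM in 5 tumours and 0.485 CPM in tumour 5, and it did not pass (1.53 ± 0.71, adjusted p = 0.117). The floxed calls of Cxcl9 and Cxcl10 ended without any 1 normal liver (highest adjusted p = 0.0672 and 0.0761). Cxcr3 was at 0.199 to 3.16 CPM in floxed tumours, with tumour 4 the highest, and passed in no comparison (adjusted p = 0.0514 to 0.997). T cell markers (Cd3d, Cd3e, Cd3g, Cd2, Cd4, Cd8a, Cd8b1, Lck and Zap70) summed to 56.7 CPM in floxed tumour 4 and 58.8 CPM in floxed tumour 1, and to 15.5 to 28.4 CPM in the other 4. They reached 7.33 to 21.4 CPM in deleted tumours and 11.7 to 13.8 CPM in normal livers, with none at 0. Against normal liver 4 of 9 were higher in floxed tumours, and 6 were higher and 1 lower in deleted tumours. Over all genes 24.9% and 18.1% were higher. Cd3e, Cd3g and Cd8b1 had under 10 counts in each normal liver, and the part of T cells was not tested.

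The remaining CXC ligands were mixed. Cxcl16, a transmembrane ligand of Cxcr6, was at 14.4 to 46.3 CPM in floxed tumours (median 22.6), 12.3 to 40.2 CPM in deleted tumours (median 21.9) and 7.72, 8.55 and 7.48 CPM in normal livers. It rose by 1.66 in both groups (SE 0.35 and 0.41, adjusted p = 0.00337 and 0.0143). Cxcl14, an ancient epithelial chemokine, was at 4.38 to 17.9 CPM in floxed tumours (median 11.7) and 1.22, 2.24 and 1.87 CPM in normal livers. In Hmgb1-deleted tumours it was at 52.9 and 69.6 CPM in tumours 1 and 2, 17.8 CPM in tumour 5 and 2.63 to 3.28 CPM in the other 3. It rose by 2.67 ± 0.47 (adjusted p = 0.00118) and 3.85 ± 1.31 (adjusted p = 0.0456). The deleted value ended as a call without deleted tumour 1, 2 or 5 or any 1 normal liver (highest adjusted p = 0.146), and was 3.20 without tumour 2. Without tumours 2 and 5 it was 3.14 and missed the threshold (0.0836), and without tumours 3, 4 and 6 it was 4.76 (0.000952). Cxcl17, a chemokine of mucosal tissue, had 1 count over the normal livers, against 2376 in floxed tumours (ratio 1269, 95% counting interval 228 to 50145) and 751 in deleted tumours (365, 65.4 to 14447). Floxed tumour 6 (73.4 CPM) and deleted tumour 6 (26.8 CPM) carried most of these counts. Other floxed tumours were at 0.745 to 13 CPM and other deleted tumours at 0.329 to 2.91 CPM. Both groups passed against normal liver (adjusted p = 0.00639 and 0.0390), with fitted log2 values of 8.02 and 5.56 in place of 9.71 and 8.08 without these tumours. Without normal liver 1 they were 11.51 and 9.93. The deleted calls of Cxcl16 and Cxcl17 ended without any 1 normal liver (highest adjusted p = 0.0613 and 0.132). Cxcl13, which draws B cells through Cxcr5, passed in no comparison (adjusted p = 0.0897 to 0.891) and was highest in floxed tumour 3, at 17.5 CPM.

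The MIP-1-type CC ligands bind Ccr1 and other receptors on macrophages, granulocytes and T cells. Ccl9 was at 75.8 to 243 CPM in floxed tumours (median 202), 97 to 224 CPM in Hmgb1-deleted tumours (median 198) and 62.3, 61.7 and 91.3 CPM in normal livers. Number 5 was the lowest in both tumour groups, a number that the labels do not tie to a shared source, and floxed tumour 5 fell within the normal range. Ccl9 rose by 1.35 ± 0.33 (adjusted p = 0.00668) and 1.39 ± 0.27 (adjusted p = 0.00585), and the tumour groups differed by 0.04 ± 0.27. Ccl5, a T cell and monocyte attractant, was at 2.78 to 23.8 CPM in floxed tumours (median 4.95), 2.28 to 8.18 CPM in deleted tumours (median 5.78) and 0.934, 1.06 and 1.13 CPM in normal livers. It rose by 3.05 ± 0.79 (adjusted p = 0.00982; 2.41 without floxed tumour 4, the highest) and 2.50 ± 0.39 (adjusted p = 0.00258). Ccl3 and Ccl4, products of activated macrophages, were at most 0.204 CPM in normal livers and at 0.212 to 2.6 CPM in tumours. They rose by 2.65 ± 0.63 and 3.33 ± 0.67 in floxed tumours and by 2.53 ± 0.75 and 3.30 ± 0.82 in deleted tumours (adjusted p = 0.00602, 0.00234, 0.0279 and 0.0144). Ccl6, a rodent ligand of Ccr1, rose in floxed tumours (1.92 ± 0.58, adjusted p = 0.0204) at 6.12 to 40.7 CPM, with tumour 5 the highest, against 2.86 to 6.34 CPM in normal livers. In deleted tumours it was at 4.24 to 15.7 CPM and did not pass (0.91 ± 0.47, adjusted p = 0.156). The floxed call of Ccl6 ended without normal liver 2 or 3, the deleted call of Ccl4 without normal liver 1 or 3, and that of Ccl3 without any 1 of them (highest adjusted p = 0.0822, 0.0644 and 0.0967). The deleted call of Ccl3 also ended without deleted tumours 2 and 5, at 1.84 (adjusted p = 0.0530), where Ccl4 did not enter the fit. Without tumours 3, 4 and 6 the values of Ccl3 and Ccl4 were 3.19 and 3.95 (adjusted p = 0.000770 and 0.000656).

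Among CC receptors, Ccr1, shared by most of these ligands, was at 1.63 to 4.78 CPM in floxed tumours (median 1.82), 0.820 to 7.46 CPM in Hmgb1-deleted tumours (median 1.5) and 0.447, 0.326 and 0.148 CPM in normal livers. It rose by 2.88 ± 0.53 (adjusted p = 0.00149) and 3.17 ± 0.90 (adjusted p = 0.0237; 2.57 without deleted tumour 5). The deleted value was 1.95 without deleted tumours 2 and 5 (adjusted p = 0.0170) and 3.88 without tumours 3, 4 and 6 (0.00257). Number 5 was the highest in both tumour groups. Ccr7, which guides dendritic cells and naive T cells, rose by 1.42 ± 0.42 and 1.56 ± 0.34 (adjusted p = 0.0179 and 0.00858), from 0.448 to 0.591 CPM in normal livers to 0.653 to 2.29 CPM in tumours. The floxed call of Ccr7 and the deleted call of Ccr1 ended without any 1 normal liver (highest adjusted p = 0.0794 and 0.0839). Macrophage markers (Adgre1, Clec4f, Cd68, Csf1r, Timd4, Marco, Vsig4, Lyz2, C1qa and C1qb) summed to 274 to 627 CPM in floxed tumours, 357 to 699.6 CPM in deleted tumours and 259 to 343 CPM in normal livers. The highest sums in the tumour groups were those of tumours numbered 5, no marker was at 0, and their part was not tested.

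Ccr3, the eosinophil receptor for eotaxins, was scarce but uneven between the tumour groups. It was at 0.599 to 2.07 CPM in floxed tumours (median 1.26), 0 to 1.04 CPM in deleted tumours (median 0.0910) and 0.162, 0.122 and 0.0492 CPM in normal livers. Of the deleted tumours 5 were below every floxed tumour and tumour 5, at 1.04 CPM, lay among them. Ccr3 rose in floxed tumours by 3.37 ± 0.59 (adjusted p = 0.00109), in a test that it entered only through the tumours. In deleted tumours against normal liver its counts did not pass the filter, so it was not tested there. Between tumour groups the value was -2.20 ± 0.73 (adjusted p = 0.0850). It passed as lower without deleted tumour 5 (-3.63, adjusted p = 0.00685), without deleted tumours 2 and 5 (-3.58, 0.0103) and with DESeq2 (-2.28, 0.0284).

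Lymphoid and epithelial CC ligands were mixed. Ccl22, a macrophage and dendritic cell product that binds Ccr4, was at 0.327 to 1.44 CPM in floxed tumours, 0.690 to 3.72 CPM in deleted tumours and 0.325, 0.204 and 0.148 CPM in normal livers. It rose by 2 ± 0.54 and 2.76 ± 0.70 (adjusted p = 0.0117 and 0.0153), and both calls ended without normal liver 2 or 3 (highest adjusted p = 0.0541 and 0.0665). The deleted value of Ccl22 was 2.16 without deleted tumours 2 and 5 (adjusted p = 0.0177). Ccl20, the ligand of Ccr6, had 0 counts in normal livers, and pooled levels were at least 16.4-fold higher in floxed and at least 18.3-fold higher in deleted tumours (against 3 counts over the normal livers; adjusted p = 0.00463 and 0.0237). The deleted call of Ccl20 ended without any 1 normal liver (highest adjusted p = 0.0682), and its fitted value of 7.13 was 7.99 without deleted tumours 3, 4 and 6. Ccl25, a thymus and gut ligand of Ccr9, was at 1.87 to 5.22 CPM over the 15 libraries, with log2 values of -0.19 ± 0.23 and -0.23 ± 0.28 against normal liver. Ccl27a was at 1.5 to 3.92 CPM, and its values of -0.01 ± 0.29 and 0.01 ± 0.32 rest on reads that its near-identical copy Ccl27b, listed at 0, may share.

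Some members gave no test. Ccl19, Ccl21a, Ccl21b, Ccl21c, Ccl27b and Ccl28 had 0 counts in all 15 libraries, and Ccl21a, Ccl21b and Ccl21c are near-identical copies whose reads may have been dropped in counting. A further 10 (Ccl1, Ccl11, Ccl17, Ccl26, Ccr4, Ccr6, Ccr8, Ccr10, Cxcl15 and Cxcr1) had counts in some libraries, at most 39, and entered no comparison. Ccl12, Ccr3, Ccr9, Cxcl3 and Xcl1 were tested in 1 or 2 of the comparisons. Xcl1, a T and natural killer cell product, was at 1.90 ± 0.68 in deleted tumours against normal liver (adjusted p = 0.0542). Its receptor Xcr1, a mark of cross-presenting dendritic cells, was at -0.35 ± 0.68 and 0.60 ± 0.45, and Cxcr5 and Cxcr6 passed in no comparison either.

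Several members sit next to one another among RefSeq protein-coding genes, and their counts stand beside 24.9% and 18.1% of all genes higher in floxed and deleted tumours than in normal liver. Ccl3, Ccl4, Ccl7, Ccl8, Ccl12, Cxcl2 and Cxcl3 were tested against normal liver only through the tumours, as given above, so their part of each count was a condition of entry. Ccr1 had 3 to 11 counts in normal livers, so its part is not free of this condition. In the run Ccl5, Ccl9, Ccl6, Ccl3 and Ccl4, 5 of 5 genes were higher in floxed tumours and 4 of 5 in deleted tumours than in normal liver. In the run Ccl2, Ccl7, Ccl11, Ccl12, Ccl8 and Ccl1, 3 of 3 tested genes and 4 of 4 tested genes were higher. The run Cxcl3, Cxcl15, Cxcl1 and Cxcl2 had 3 of 3 and 2 of 2 higher, and Cxcl1 alone of its 2 tested genes was lower in deleted than in floxed tumours. In the receptor run Cxcr6, Xcr1 and Ccr1, Ccr1 alone was higher in either tumour group. Neighbouring genes with similar sequence may share reads.

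**Figure D4:**
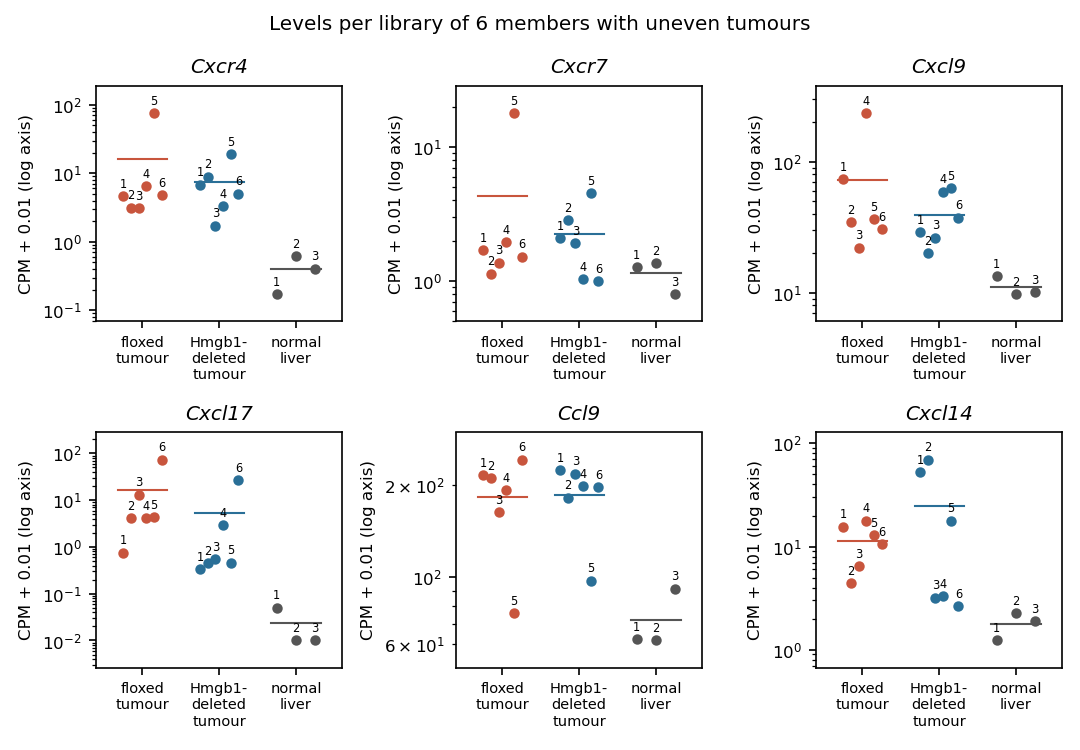
Points are libraries, numbered by replicate, lines are group means, and the vertical axes give CPM + 0.01 on a log scale for Cxcr4, Cxcr7, Cxcl9, Cxcl17, Ccl9 and Cxcl14. Floxed tumour 5 is high in Cxcr4 (75.5 CPM) and Cxcr7 (18.0 CPM), floxed tumour 4 in Cxcl9 (234 CPM), and the tumours numbered 6 in Cxcl17 (73.4 and 26.8 CPM).

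Single tumours differed in which chemokines they carried. Over the 42 tested members, floxed tumour 4 had the highest level of its group for 17 and floxed tumour 5 for 9, while floxed tumours 3 and 6 had the lowest for 14 each. Hmgb1-deleted tumour 2 was the highest of its group for 18 members and tumour 5 for 9, and tumour 3 was the lowest for 15. The coefficient of variation was larger in deleted than in floxed tumours for 21 of the 42, and its median was 62.7% in floxed and 61.5% in deleted tumours.

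Other genes of the pathway were taken from fixed lists, and their counts against normal liver stand beside 24.9% and 18.1% of all genes higher in floxed and deleted tumours. Of 26 tested genes that signal below chemokine receptors, 19 were higher and 1 lower in floxed tumours than in normal liver and 19 higher in deleted tumours (medians 1.26 and 1.09, beside 0.06 and 0.05 over all genes). Between tumour groups 2 of 26 passed, a share near the 7.78% of all genes, and both were lower, namely Rgs2, a brake on G-protein signalling (38.7 to 11.1 CPM, -1.77 ± 0.20, adjusted p = 0.000878), and Rap1gap, which switches off the adhesion regulator Rap1 (24.0 to 10.4 CPM, -1.18 ± 0.29, 0.0253). Both were higher in each tumour group than in normal liver. Of 19 inducers of chemokine genes, 10 and 9 were higher in the tumour groups than in normal liver. They included the NF-kappaB subunits Relb (2.65 ± 0.26 and 2.68 ± 0.42) and Nfkb2 (1.58 ± 0.14 and 1.53 ± 0.35) and the cytokine Tnf (3.71 ± 0.62 and 3.51 ± 0.74), which had under 10 counts in each normal liver. Between tumour groups 1 of these 19 passed, where 7.78% of all genes did. It was Myd88, the adaptor of Toll-like receptors (19.2 to 25.4 CPM, 0.42 ± 0.10, adjusted p = 0.0224). Of 9 related genes outside the naming rule, 4 were higher in each tumour group than in normal liver, among them the platelet chemokine Pf4 (2.08 ± 0.53 and 2.15 ± 0.70). Of 10 tested proteases and proteoglycan genes that act on chemokines, 2 were higher and 1 lower in floxed tumours than in normal liver. In deleted tumours 1 was higher and 2 lower, so the list did not rise beyond the shares of all genes. Dpp4 alone of the 10 differed between the tumour groups, where 7.78% of all genes did. Mmp12, a macrophage elastase that cleaves chemokines, rose most against normal liver within that list (6.95 ± 1.62 and 4.64 ± 0.78, adjusted p = 0.00567 and 0.00343).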

How the data were processed

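Polyadenylated RNA of 12 liver tumours and 3 normal livers was made into TruSeq libraries, as the labels' protocols state. Values in the deposited table are raw counts of reads, 1 row per symbol, which the authors did not normalize. Build mm9 and the tools bcl2fastq 1.8.4, Bowtie2 2.2.4, TopHat2 2.1.0 and HTSeq 0.6.1 are named in the submitters' processing notes; settings, annotation and strand: not given in the sources used here. Reads shared by near-identical copies or overlapping genes may have been dropped or misassigned.

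Groups came from the labels. In R 4.3.3, edgeR 4.0.16 (filterByExpr, TMM factors, robust quasi-likelihood F test) was fitted to the 2 groups compared, with Benjamini-Hochberg adjustment over all tested genes and calls at an adjusted p under 0.05. CPM uses TMM factors over all 15 libraries. Standard errors come from the F statistic. With 18973246 to 30929442 counts per library, intervals (95%) and floors (3 counts) cover counting error only. Replicates were compared by chi-square over genes, and the closest pair gave 26.3 per degree of freedom, so no library was a re-count of another. Samples of the same tumour or mouse would not be found this way. Fits were tested on simulated data with planted changes. For deleted against floxed tumours, floxed tumours against normal liver and deleted tumours against normal liver, 49%, 33.9% and 27.7% of 2-fold changes were called. For 4-fold changes these shares were 83.8%, 78.9% and 71.8%, and 6.43%, 6.9% and 2.91% of calls were false. A gene that did not pass may therefore still differ by 2-fold.

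Members, lists and left-out sets were chosen with earlier results of these data known. Named were all called members, up to 2 uncalled members per role list with the highest mean CPM, members at 0 everywhere, and from each pathway list the 3 smallest p in each of 2 comparisons; a few of these are given only within counts, and Cxcr3, Cxcr5 and Xcr1 were added for their ligands. Older symbols were matched (Adgre1 as Emr1, Chil3 as Chi3l3); Il8, Ly6g and Trac had no match. Alternatives were RLE scaling, library totals without a factor, no filter, DESeq2 1.42.0, all 15 samples in 1 fit, a replicate block and left-out libraries. Promoters are RefSeq's; protein sequences were not used here. Values of 1 member and 1 macrophage marker are not reported here; the member stays in the counts.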

Additional observations from a re-analysis of the deposited data

Results flagged for a closer look

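Among the 41 named members, each tumour group of 6 was searched for 1 library set apart from the other 5 by a wide gap relative to the group's range, and 15 of 82 groups had one. For normally distributed values chance flags about 1 in 20; CPM values are skewed, so the rate by chance here is not known and 15 is not read as an excess. Floxed tumour 5 was the highest for Cxcr4 (75.5 CPM), Cxcr7 (18.0 CPM), Ccr1 (4.78 CPM), Ccl7 (1.69 CPM) and Ccl11 (1.10 CPM). Ccl11, an eosinophil attractant also made by fibroblasts, was at 0 to 0.0544 CPM in the other floxed tumours. Floxed tumour 4 was the highest for Cxcl9 (234 CPM), Cxcr6 (3.24 CPM) and Xcl1 (2.08 CPM), genes of T and natural killer cell traffic. Floxed tumour 6 was the highest for Cxcl17 (73.4 CPM) and the lowest for Cxcl11 (3.42 CPM). Among Hmgb1-deleted tumours, tumour 6 was the highest for Cxcl17 (26.8 CPM), tumour 2 for Cxcl5 (3.01 CPM), tumour 3 for Cxcl3 (0.744 CPM) and tumour 5 for Ccr3 (1.04 CPM), and tumour 5 was the lowest for Ccl9 (97 CPM). Libraries share their cells over genes, so these 15 are not independent of one another.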

How the results depend on the processing

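No called value of a named member reversed its direction under an alternative. For Hmgb1-deleted against floxed tumours, 5 members were called with DESeq2 and 8 without deleted tumours 3, 4 and 6 (Cxcl1 kept its call and Cxcl12 lost it, Ccl2, Ccl7, Ccr2, Cx3cl1, Cx3cr1 and Cxcl14 joined as higher, and so did Ccl12, which was not tested with all 12 tumours in the 2-group fit), and 0 to 3 with 1 library left out: 0 without floxed tumour 1, and 1 without floxed tumour 3 or deleted tumour 4. Over all genes the count was 1954 with DESeq2, 1629 with all 15 samples in 1 fit and 589 (without deleted tumour 4) to 1054 with 1 library left out; the cause was not tested. With 1 library left out, 20 to 29 members and 4860 to 6966 genes were called for floxed tumours against normal liver, and 7 to 27 members and 2113 to 4912 genes for deleted tumours; without normal liver 1, 2 or 3 these were 8, 8 and 7 members and 2113, 2227 and 3109 genes, from fewer samples. Library totals without a factor moved the median of all genes to 0.20, 0.15 and 0.33 in the 3 comparisons, and calls between tumour groups split as 982 higher and 257 lower, or 535 and 524 with RLE, beside 598 and 447. The Hmgb1 difference was -0.94 to -0.78 with 1 library left out.

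The replicate numbers showed no clear pairing of the samples: same-numbered floxed and deleted tumours had correlations of -0.27 to 0.23. Such correlations cannot exclude a shared litter or batch. The replicate block kept only numbers that both groups hold, so tumours 4, 5 and 6 were left out against normal liver. With it 3, 30 and 22 members were called in the 3 comparisons. In deleted tumours against normal liver 5 calls ended, Cxcl12 among them (adjusted p = 0.055). Pairing and fewer samples cannot be told apart in these 2 fits against normal liver. The 10 members with counts that were tested nowhere had at most 39 counts in a library.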
